A study of Homo sapiens with 6 samples.

Results

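The nuclear genes of respiratory complexes II to V were taken as a group of 61 protein-coding genes out of 19785 with an annotated start site. They were chosen by gene symbol alone: SDHA to SDHD, every UQCR gene, CYC1, CYCS, every gene whose symbol is COX followed by a digit, and the ATP5 genes of ATP synthase. Complex II contributed 4 genes, complex III 10, cytochrome c 1, complex IV 17 subunits and 9 assembly factors, and complex V 20 genes. Among the last, ATP5MF-PTCD1 is a read-through gene that shares its start with ATP5MF.

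Myc binding was measured by chromatin immunoprecipitation sequencing in MDA-MB-231, a human triple-negative breast cancer cell line. Unedited parental cells were compared with MDA-MB-231 cells from which TXNIP, the thioredoxin interacting protein, had been deleted by CRISPR/Cas9 (TKO), with 2 Myc libraries for each cell line. Knockout cells were isolated as clones from single cells, so the deletion and other differences of a clone cannot be told apart. The study calls the replicates biological but the labels do not say whether they were separate cultures, so the spread between them may be technical.

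The respiratory chain passes electrons from NADH and succinate to oxygen in the inner mitochondrial membrane and pumps protons as it does so. Complex II oxidizes succinate, complex III passes electrons to cytochrome c, complex IV reduces oxygen, and complex V (ATP synthase) uses the proton gradient to make ATP. Most of their subunits are encoded in the nucleus, and the transcription factors NRF1, YY1 and the ETS factor GABP are known activators of these genes. Myc binds DNA with its partner MAX, with highest affinity at the E-box CACGTG, and promotes mitochondrial biogenesis in many cell types.

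A promoter peak was a Myc peak whose summit, its point of most reads, lay within 1 kb of a transcription start site of the gene. The 4 libraries differed in list length and depth. Parental replicates 1 and 2 had 3720 and 5719 peaks, from 26.4 and 22.2 M reads as recovered from the lists. TKO replicates 1 and 2 had 27213 and 25887 peaks, from 19.9 and 13.0 M reads. The parental and TKO lists therefore sample very different numbers of sites, so shares are read against the share over all 19785 genes in the same list, which was 12.2% and 12.9% in parental replicates 1 and 2 and 49.1% and 49.7% in TKO replicates 1 and 2.

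Most respiratory genes had a Myc promoter peak in TKO cells and few had one in the parental line. In parental replicates 1 and 2, 11 and 11 of the 61 genes were bound, 18.03% in each, against 12.2% and 12.9% of all genes. In TKO replicates 1 and 2, 48 and 51 genes were bound, 78.7% and 83.6%, against 49.1% and 49.7% of all genes. Both TKO libraries stood above both parental libraries, and the respiratory share was above that of all genes in each library. The means were 18.03% ± 0 and 81.1% ± 3.48 (SD, n = 2), a difference of 63.1 percentage points. An exact two-sided permutation test of the 4 values gave p = 0.333, the lowest that this design of 2 against 2 permits, so no comparison between the cell lines could pass 0.05.

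The share depended on list length. When each list was reduced to its 3720 peaks of highest −log10 p-value, the number of respiratory genes bound was 11, 9, 14 and 19 in parental replicates 1 and 2 and TKO replicates 1 and 2. All genes were then bound at 12.2%, 9.07%, 13.3% and 13.6%. Both TKO libraries remained above both parental ones for the respiratory genes, but the difference was 10.7 percentage points, between means of 16.4% ± 2.32 and 27.0% ± 5.80 (SD, n = 2; exact permutation p = 0.333).

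**Figure D1:**
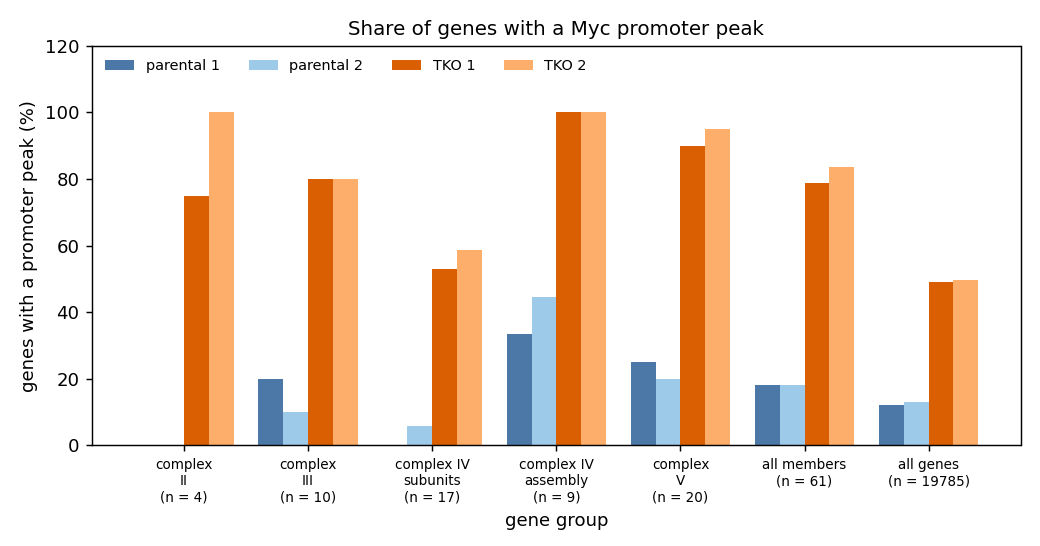
Bars give the percentage of genes with a Myc promoter peak (y axis) in each complex, in all 61 members and in all 19785 genes, for each of the 4 libraries. The TKO bars are the taller pair in every group, and complex IV subunits have the lowest TKO bars of the complexes, at 9 and 10 of 17 genes. Cytochrome c, a single gene bound in every library, is left out.

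The genes fell into a few classes by the libraries in which they were bound. ATP5F1A, ATP5MC1, ATP5MK, ATP5PB, COX10, COX18, COX20, CYCS and UQCRH were bound in all 4 libraries, 9 genes or 14.8%, against 9.32% of all genes. Another 4, ATP5MC3, COX16, COX7A2L and UQCR11, had peaks in both TKO lists and in 1 parental list, 6.56% against 6.16% of all genes. The largest class, 35 genes or 57.4%, had peaks in both TKO lists and in neither parental list, against 29.8% of all genes. ATP5PO, COX5A and SDHC had a peak in TKO replicate 2 only. A peak in 1 TKO list of either replicate and no parental list was thus found at 4.92% of members, against 8.20% of all genes. The remaining 10 genes, 16.4%, had no promoter peak in any library, against 46.3% of all genes. No member was bound in a parental library without a peak in both TKO lists, and only 0.273% of all genes were.

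**Figure D2:**
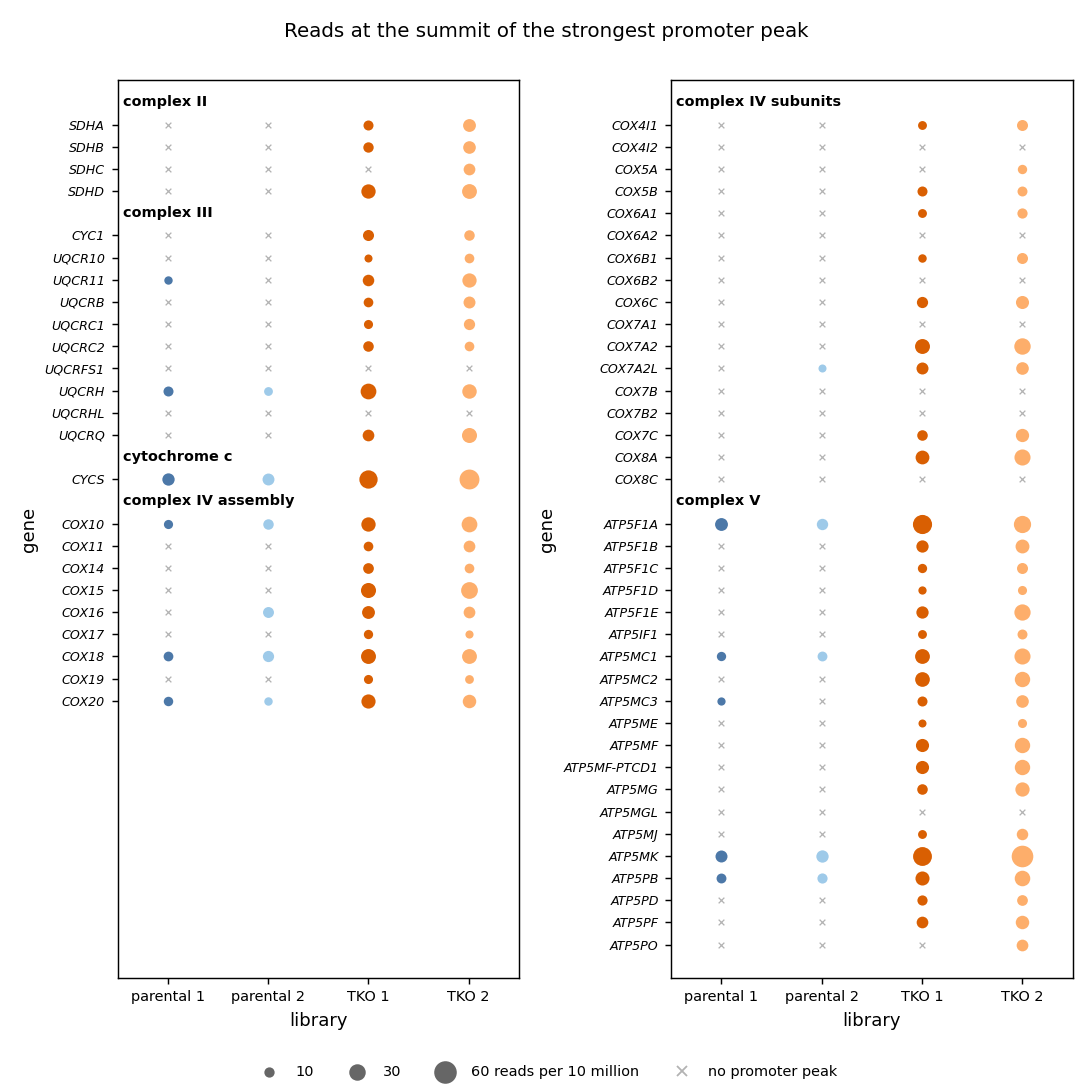
Each row is a gene and each column a library, and the area of a dot is proportional to the reads at the summit of the strongest promoter peak per 10 M reads of the library. Grey crosses mark genes with no promoter peak. Parental dots are few and small, and 6 of the 10 genes with a cross in every column are tissue-restricted isoforms of complex IV.

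Myc binding strength was compared where it could be measured in every library, at the 9 genes bound in all 4. Reads at the summit of the strongest promoter peak were recovered from the values of the peak caller and divided by library depth, giving reads per 10 M reads. The same measure over all 1843 genes bound in all 4 libraries served as the background.

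CYCS encodes cytochrome c, the soluble carrier between complexes III and IV and a trigger of apoptosis. Its promoter had 21.2 and 19.8 reads per 10 M in parental replicates 1 and 2 and 46.6 and 55.2 in TKO replicates 1 and 2. The groups did not overlap, and the ratio of means was 2.48. The peak in TKO replicate 1 spanned chr7:25164682-25165580 (hg19), with its summit 93 bases before the start site. By fold enrichment over local background, its peak ranked at percentiles 9.17 and 12.1 in the parental libraries and 90.9 and 84.8 in the TKO libraries. Ranks in lists of unequal length are not comparable between the cell lines, and with 3720 peaks in each list they were 9.17, 1.67, 37.4 and 16.9. Thus a promoter among the highest of the 9 in reads was among the lowest in fold in the parental line. Its local background there was 12 and 11 in the scaled units of the peak caller, against a median of 5 at all bound members. In these units 1 read counted as 0.837 and 0.997 in parental replicates 1 and 2.

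Among complex V genes, ATP5MK, encoding a small membrane subunit of the ATP synthase dimer, had the largest ratio. Its summit held 20.1 and 21.2 reads per 10 M in the parental line and 49.6 and 65.2 in TKO, a ratio of 2.78. ATP5MC1 encodes the c subunit of the rotor ring, and its promoter held 12.1 and 13.5 reads in the parental line and 30.6 and 36.1 in TKO, a ratio of 2.60. In both genes the TKO libraries lay above the parental ones by more than the spread within either pair. ATP5F1A, the alpha subunit of the catalytic head, held 23.1 and 18.03 reads in the parental line and 51.1 and 41.4 in TKO, a ratio of 2.25. ATP5PB, the b subunit of the peripheral stalk, held 13.6 and 14.4 reads in the parental line and 27.6 and 33.7 in TKO, a ratio of 2.19. ATP5F1A ranked highest of the members in both parental libraries and TKO replicate 1, at percentiles 98.3, 90.9 and 99.0. In TKO replicate 2 it ranked at 95.9, behind COX10 at 96.9 and ATP5F1B at 96.6.

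Complex III had UQCRH, the hinge protein that helps cytochrome c dock, in this class. It held 14.0 and 10.8 reads per 10 M in the parental line and 34.6 and 29.1 in TKO, a ratio of 2.57. From complex IV, assembly factors but no subunit were bound in every library. COX10, which farnesylates heme for the enzyme, held 11.7 and 15.3 reads in the parental line and 28.6 and 34.5 in TKO, a ratio of 2.33. COX18 and COX20, both of which act in the membrane insertion and maturation of the COX2 subunit, had ratios of 2.004 and 2.38. COX18 held 13.2 and 17.6 reads in the parental line and 31.1 and 30.7 in TKO. COX20 held 12.5 and 9.92 reads in the parental line and 28.1 and 25.3 in TKO.

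All 9 genes were thus higher in both TKO libraries than in both parental libraries, as were 1824 of the 1843 genes bound in all 4 libraries, 99.0%. Each gene's exact permutation p was 0.333. The median ratio of the 9 was 2.38 (range 2.004 to 2.78), and that of the 1843 was 2.56 (quartiles 2.25 to 2.87). The respiratory genes therefore lay within the range of bound genes in general. The fragment extension used by the caller, taken as the narrowest peak of each list, was longer in TKO (182 and 201 bp) than in the parental line (140 and 151 bp), which raises the reads counted at a summit. With reads also divided by extension length the median ratio was 1.81. The ratio is relative to library depth, and no spike-in set its scale.

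**Figure D3:**
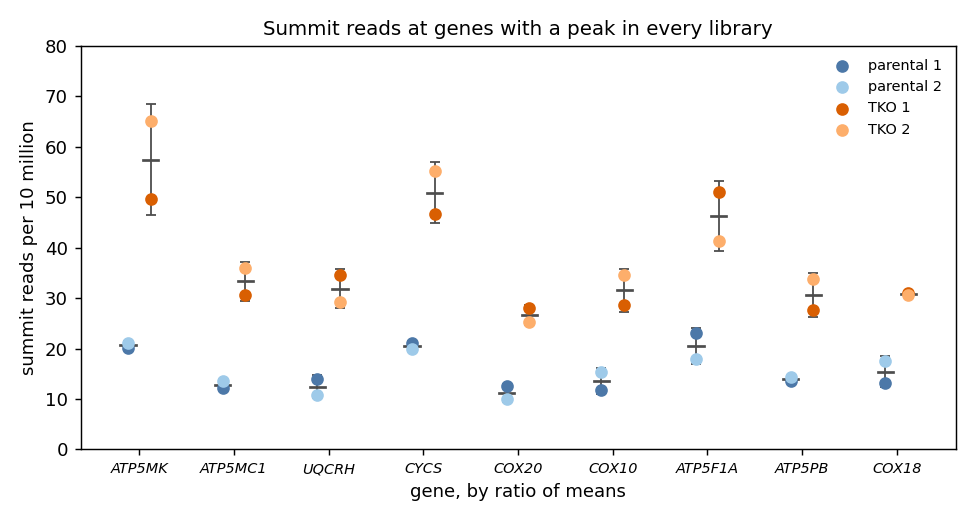
Points give summit reads per 10 M reads (y axis) in each library for the 9 genes bound in all 4, ordered by the ratio of means. Horizontal bars are means and error bars are SD (n = 2). Every TKO point lies above both parental points of its gene.

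Sequence was read from the genome around the summits that carried an E-box. CACGTG lay within 50 bp of the summit in ATP5F1A, ATP5PB, SDHD and UQCR11 in TKO replicate 1, that is 4 of 48 bound genes. The windows of 101 bases centred on those summits are shown on hg19, read on the strand of the gene, with the E-box in capitals.
ATP5F1A, chr18:43678473-43678573 (minus strand): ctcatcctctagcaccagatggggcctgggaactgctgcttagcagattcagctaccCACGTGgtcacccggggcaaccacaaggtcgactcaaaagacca
ATP5PB, chr1:111991820-111991920 (plus strand): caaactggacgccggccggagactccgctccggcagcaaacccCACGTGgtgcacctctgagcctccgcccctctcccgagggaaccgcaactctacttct
SDHD, chr11:111956999-111957099 (plus strand): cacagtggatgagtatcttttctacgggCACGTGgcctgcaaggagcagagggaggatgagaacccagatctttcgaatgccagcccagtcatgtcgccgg
UQCR11, chr19:1605639-1605739 (minus strand): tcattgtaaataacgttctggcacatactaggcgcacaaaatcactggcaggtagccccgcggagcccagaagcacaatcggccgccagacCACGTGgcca

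In ATP5F1A the centre of the E-box was 9.50 bases from the summit in parental replicate 2 and in TKO replicate 1, whose summits fell on the same base. In TKO replicate 2 it was 30.5 bases away. In UQCR11, a small complex III subunit, the E-box lay 0.500 bases from the summit of parental replicate 1 and 43.5 bases from that of TKO replicate 1. In SDHD, a membrane anchor of complex II, the TKO replicate 1 summit was 547 bases before the start site, and in replicate 2 it was 117 bases before it with no E-box within 50 bp. These summits were nearer to the start of TIMM8B on the opposite strand, at 431 and 1 bp. The E-box shown for SDHD therefore cannot be assigned to SDHD alone. Summits of the same promoter thus moved between replicates, and an E-box called in 1 library could be missed in the other.

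Few respiratory summits held a canonical E-box, and within 50 bp the share did not exceed that of other bound genes in any library. It was 2 of 11 and 1 of 11 in the parental libraries, 18.2% and 9.09%, against 21.6% and 18.5% of other bound genes. It was 4 of 48 and 3 of 51 in TKO, 8.33% and 5.88%, against 9.14% and 8.11%. The means were 13.6% ± 6.43 in the parental line and 7.11% ± 1.73 in TKO (SD, n = 2; exact permutation p = 0.333). Without parental replicate 1 the difference of -6.53 percentage points was -1.98.

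Motifs of the known activators were also sought in a wider window, within 250 bp of the summit on either strand. The NRF1 letters GCATGCGC were found at 18.2% and 18.2% of the bound respiratory genes in parental replicates 1 and 2 and at 16.7% and 21.6% in TKO replicates 1 and 2. Other bound genes had them at 7.35%, 6.89%, 6.30% and 6.19%. The ETS letters CCGGAAGT were found at 45.5%, 27.3%, 22.9% and 19.6% of respiratory genes and at 14.5%, 14.1%, 10.5% and 10.6% of others. The YY1 letters AAGATGGCG were found at 27.3%, 27.3%, 16.7% and 11.8% and at 6.02%, 6.18%, 4.67% and 4.71%. Within 250 bp each of these 3 motifs had a higher share in the respiratory genes in all 4 libraries, whereas CACGTG in the same window was found at 45.5%, 27.3%, 14.6% and 13.7% of respiratory genes and at 37.1%, 34.6%, 21.2% and 20.5% of others, higher in parental replicate 1 alone. This did not hold in every library nearer the summit. Within 50 bp, NRF1 was at 0% against 1.42% in parental replicate 2 and 0% against 1.08% in TKO replicate 1. ETS was at 0% against 5.03% in parental replicate 1 and 2.08% against 3.07% in TKO replicate 1. YY1 was at 0% against 1.37% in parental replicate 1. The other shares within 50 bp were higher in the respiratory genes. Within 100 bp only YY1 in parental replicate 1 was lower, at 0% against 3.49%. These motifs were added after the data had been seen, the parental shares rest on 11 genes, and a match is a description of letters, not of a factor.

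The NRF1 letters are shown for the 2 genes that held them and were bound in all 4 libraries, and for a subunit each of complexes II and V. Each line gives the match in capitals with 30 bases to each side, on hg19 and on the strand of the gene.
CYCS, chr7:25165011-25165078 (minus strand): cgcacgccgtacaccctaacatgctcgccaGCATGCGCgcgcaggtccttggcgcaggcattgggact
COX18, chr4:73935441-73935508 (minus strand): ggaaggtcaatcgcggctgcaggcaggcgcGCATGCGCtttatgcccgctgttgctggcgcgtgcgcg
SDHB, chr1:17380690-17380757 (minus strand): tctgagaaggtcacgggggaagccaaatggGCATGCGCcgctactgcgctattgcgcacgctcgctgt
ATP5F1C, chr10:7830090-7830157 (plus strand): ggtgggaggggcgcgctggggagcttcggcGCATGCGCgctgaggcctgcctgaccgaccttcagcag

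The CYCS match was 7.5 and 65.5 bases from the summits of parental replicates 1 and 2 and 72.5 and 12.5 bases from those of TKO replicates 1 and 2. In COX18 the distances were 129.5, 118.5, 120.5 and 95.5 bases. SDHB, the iron-sulfur subunit of complex II, had no parental peak and its match lay 176 and 238 bases from the TKO summits. ATP5F1C, the gamma subunit that turns within the catalytic head, had matches 87.5 and 77.5 bases from its TKO summits. The letters in COX18 and ATP5F1C are part of a run that reads as NRF1 letters on both strands.

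Promoter windows were also compared without regard to summits, within 250 bp of a start site. Of the 51 members bound in any library, 8 held CACGTG, 11 the NRF1 letters, 13 the ETS letters and 8 the YY1 letters. None of the 10 unbound members held any of the 4. Over all genes the shares were 10.6%, 4.06%, 5.62% and 2.94%. The median number of CpG sites in the window was 37 in bound members, 23.5 in unbound members and 34 in all genes.

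Complex II was not bound in the parental line. SDHA, the flavoprotein subunit that oxidizes succinate, held 14.0 and 23.0 reads per 10 M in TKO replicates 1 and 2. SDHB held 15.0 and 22.2, and SDHD held 28.6 and 30.7. SDHC, the other membrane anchor, had a peak in TKO replicate 2 alone, at 19.2 reads. In TKO replicate 1 the nearest summit to an SDHC start was 75510 bp away. SDHA ranked highest in the complex, at percentiles 72.1 and 88.6 of the TKO lists, and SDHB lowest of those in both, at 21.0 and 51.2. The median percentile in TKO replicates 1 and 2 was 60.6 and 61.0 over all bound members and 71.0 and 70.6 over all bound genes. Bound members thus ranked lower by fold in TKO than bound genes in general. In parental replicates 1 and 2 the medians were 51.9 and 62.0 over bound members and 56.8 and 56.8 over all bound genes. None of the 4 genes was bound in any library when the lists were of equal length.

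In complex III, 2 and 1 of 10 genes were bound in the parental line and 8 in each TKO library. CYC1, which encodes the heme-bearing cytochrome c1, was bound in TKO alone, at 17.0 and 15.3 reads per 10 M. UQCR11 held 9.84 reads in parental replicate 1, had no peak in parental replicate 2, and held 18.6 and 28.4 reads in TKO. The core subunit gene UQCRC1 had one of the weakest peaks of TKO replicate 1, at percentile 0.503, and ranked at 49.2 in replicate 2. UQCR10 held 9.02 and 13.0 reads in TKO. UQCRFS1, which encodes the Rieske iron-sulfur protein, an essential catalytic subunit, had no promoter peak in any library, and the nearest TKO summits were 393185 and 392939 bp from its start. UQCRHL, an intron-less copy of UQCRH, also had none, with the nearest TKO summits at 6376 and 6947 bp. Reads from UQCRH and UQCRHL may not be separable, and how reads with several matches were handled is not given in the sources used here.

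Complex IV subunits split by isoform. Where a subunit has a widely expressed and a tissue-restricted form, the widely expressed form was bound in both TKO libraries in all pairs but COX7B and the restricted form in none. COX4I1, the widely expressed form of subunit 4, held 11.03 and 16.9 reads per 10 M in TKO, and COX4I2, a form found mainly in lung, had its nearest TKO summits at 23960 and 23961 bp. COX6A1 held 11.03 and 14.6 reads and COX6B1 held 10.0 and 16.9, while the muscle form COX6A2 and the testis form COX6B2 had no promoter peak. COX7A2 had the most reads of the complex IV subunits, 31.1 and 37.6, and the muscle form COX7A1 had no promoter peak. COX8A held 26.6 and 36.1 reads, and COX8C had no promoter peak. The pair of COX7B and COX7B2 was unbound as a whole: COX7B, a widely expressed gene on the X chromosome, had its nearest TKO summits at 11063 and 11031 bp.

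In all, 8 members were tissue-restricted isoforms or copies (COX4I2, COX6A2, COX6B2, COX7A1, COX7B2, COX8C, UQCRHL and ATP5MGL), and 0 of 8 were bound in each library. The other 53 were bound at 11 and 11 in the parental line and at 48 and 51 in TKO, a TKO mean of 93.4% ± 4.002 (SD, n = 2). The 49.1% and 49.7% of all genes are not a like comparison, since no isoforms or copies were left out there. With the 8 kept, the TKO mean of the members was 81.1%. The unbound members outside the 8 were COX7B and UQCRFS1.

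Of the remaining complex IV subunits, COX7A2L, which tethers complexes III and IV in supercomplexes, was the only one with a parental peak, at 9.01 reads per 10 M in replicate 2. It held 20.1 and 22.2 reads in TKO. COX5A was bound in TKO replicate 2 alone, at 12.3 reads, 491 bases before its start. COX5B ranked low in both TKO lists, at percentiles 15.0 and 12.3. COX6C and COX7C, small accessory subunits, held 17.5 and 23.8 reads and 15.5 and 24.5 reads in TKO. With lists of equal length, COX7A2 alone remained among the subunits, in both TKO libraries.

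All 9 complex IV assembly factors were bound in each TKO library, against 3 and 4 in the parental line. COX15, which converts heme O to heme A, had the most reads of them in TKO, 31.6 and 39.1 per 10 M, and no parental peak. COX11 and COX17, which deliver copper to the enzyme, held 13.0 and 19.2 reads and 12.0 and 9.20 reads. COX16 was bound in parental replicate 2 at 16.7 reads and in TKO at 23.1 and 19.2. It ranked at percentile 72.9 in that parental list and at 45.9 and 7.85 in the longer TKO lists, and with lists of equal length it was bound in parental replicate 2 alone. COX14 and COX19 ranked at 55.3 and 69.0 in TKO replicate 1 and at 23.2 and 13.9 in replicate 2.

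Complex V had 5 and 4 of 20 genes bound in the parental line and 18 and 19 in TKO. Of the 3 genes that encode the same mature c subunit, ATP5MC1 was bound in all 4 libraries. ATP5MC2 was bound in TKO alone, at 30.1 and 33.0 reads per 10 M, close to the 30.6 and 36.1 of ATP5MC1. ATP5MC3 held 9.46 reads in parental replicate 1, at a summit 654 bases inside the gene, and 14.0 and 22.2 reads in TKO at summits 111 and 49 bases before the start. The strongest summits of ATP5MC3 were thus at other positions in the 2 cell lines, although the peak of TKO replicate 2 spanned the parental summit.

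The catalytic head showed a like split between genes. ATP5F1B, the beta subunit that carries the catalytic sites, was unbound in the parental line and held 21.1 and 26.8 reads in TKO, at percentiles 95.7 and 96.6. It was the strongest complex V gene by rank among those with no parental peak. ATP5F1C ranked at 24.2 and 32.4. ATP5F1D and ATP5F1E, subunits of the central stalk, held 9.53 and 11.5 reads and 21.1 and 36.8 reads. ATP5IF1, the inhibitor of ATP hydrolysis by the enzyme, held 11.03 and 13.8 reads in TKO.

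In the peripheral stalk, ATP5PD and ATP5PF held 14.5 and 16.1 reads and 19.1 and 25.3 reads in TKO. ATP5PO, which joins the stalk to the head, was bound in TKO replicate 2 alone, at 19.2 reads and percentile 7.85. Of the membrane subunits, ATP5MG held 15.5 and 28.4 reads, at percentiles 2.31 and 67.1, and its copy ATP5MGL had no peak. ATP5MF and the read-through gene share a peak of 24.1 and 33.0 reads. ATP5ME and ATP5MJ held 9.02 and 11.5 reads and 11.03 and 18.4 reads.

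TKO replicates gave different ranks to some genes. Of 48 members bound in both TKO libraries, 4 (ATP5MG, ATP5MJ, COX19 and UQCRC1) differed by more than 40 percentile points between them. Over all 8949 genes bound in both, 8.20% did so. The median difference was 10.7 points for the members and 9.50 for all genes. Reads per 10 M were higher in TKO replicate 2 for 37 of the 48, with a median ratio of 1.27. Bound genes in general shifted the same way, with medians of 15.5 reads per 10 M in TKO replicate 1 and 19.2 in replicate 2.

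The 35 genes bound in TKO alone had lower TKO levels than the 9 bound in all 4. The classes rest on whether a peak was called in the parental lists, which selects promoters of strong signal. The difference in TKO level is therefore not independent of how the classes were made. Their median was 15.0 and 19.2 reads per 10 M in TKO replicates 1 and 2, with ranges of 9.02 to 31.6 and 9.20 to 39.1. The 9 had medians of 31.1 and 34.5, with ranges of 27.6 to 51.1 and 25.3 to 65.2. The ranges overlapped at their edges, through COX15, COX7A2 and ATP5MC2 among others. Over all genes the corresponding medians were 13.5 and 16.9, and 34.1 and 38.4. In the parental lists, 5% of promoter peaks had at most 7.19 and 7.66 reads per 10 M in replicates 1 and 2, and the lowest had 4.92 and 4.96. A gene without a parental peak had no value to compare, so the size of the difference at these 35 genes was not measured.

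Summits lay close to start sites. The median distance from the strongest summit to the nearest start of its gene was 146 and 160 bp in the parental line and 88.0 and 93.0 bp in TKO, against 108, 108, 150 and 146 bp over all genes bound in the same libraries. Of the bound members, 90.9% and 90.9% in the parental line and 85.4% and 84.3% in TKO had the summit within 250 bp. Over all bound genes these shares were 71.4%, 72.2%, 64.6% and 65.9%. Parental summits lay before the start in 9 of 11 and 11 of 11 genes, and TKO summits in 28 of 48 and 30 of 51. These counts have no share over all bound genes beside them. Most of the genes counted in TKO had no parental peak, so the counts do not compare the cell lines.

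Some of these promoters are shared with another gene. A start site of another protein-coding gene on the opposite strand lay within 1 kb of a start of 16 members, and all 16 were bound in both TKO libraries. Of 2711 such genes in all, 82.9% and 83.4% were bound in TKO replicates 1 and 2. Of the 45 members without such a neighbour, 71.1% and 77.8% were bound, against 43.8% and 44.4% of all genes without one. The respiratory share was thus above that of all genes in both kinds of promoter in TKO. In the parental libraries it was not above it at shared promoters, where 25% and 25% of members and 27.8% and 29.3% of all such genes were bound. At the other promoters the parental shares were 15.6% and 15.6% of members and 9.75% and 10.3% of all genes.

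At 14 members the summit itself lay within 1 kb of the partner's start, and a peak there cannot be assigned to either gene. In ATP5MK, ATP5PB and UQCRH, which were bound in all 4 libraries, the summit was nearer to the partner in every library. The ATP5MK summits lay 203, 162, 229 and 179 bp from its own start in parental replicates 1 and 2 and TKO replicates 1 and 2, and 69, 28, 95 and 45 bp from that of PDCD11, a ribosome biogenesis factor. The ATP5PB summits lay 129, 148, 216 and 238 bp from its own start and 79, 60, 8 and 30 bp from that of WDR77, and the E-box shown for ATP5PB is therefore as much in the WDR77 promoter. The UQCRH summits lay 101, 339, 111 and 313 bp from its own start and 19, 7, 29 and 19 bp from that of LRRC41. COX15, SDHA, SDHD and UQCR10 also had both TKO summits nearer to the partner, and ATP5PD, ATP5PF, COX11 and UQCRQ nearer to their own start. The partner of ATP5PF is GABPA, which encodes the DNA-binding subunit of GABP.

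**Figure D4:**
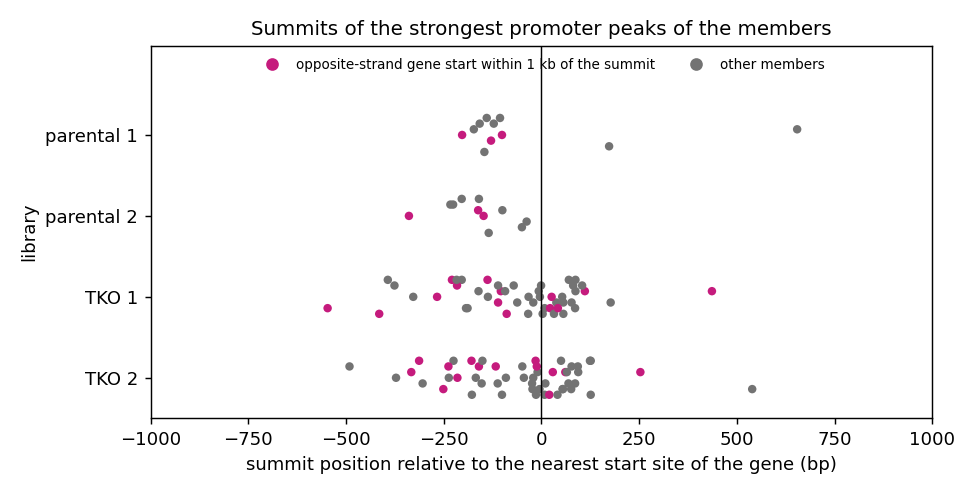
Points give the position of the strongest promoter summit relative to the nearest start site of the gene, in bp (x axis), for each member bound in each library. Negative values lie before the start. Magenta points are the 14 members whose summit lay within 1 kb of the start of a gene on the opposite strand, and most points lie within 250 bp of 0.

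Genes outside the naming rule were set beside the members. Of 39 other assembly factors and subunits of complexes II to V, 18 and 18 were bound in the parental line and 36 and 38 in TKO. These are 46.2% and 46.2%, and 92.3% and 97.4%, against 12.2%, 12.9%, 49.1% and 49.7% of all genes. They included BCS1L, which inserts the Rieske protein, and SCO1, a copper chaperone of complex IV, both bound in all 4 libraries. Of 13 regulators of respiratory genes, 6 and 6 were bound in the parental line and 12 and 12 in TKO, 46.2% in each parental library and 92.3% in each TKO library. GABPB1, GABPB2, ESRRA, PPRC1, TFAM and TFB2M were bound in all 4 libraries. NRF1, GABPA, PPARGC1A, PPARGC1B, TFB1M and POLRMT were bound in both TKO libraries alone, and YY1 in none. Of 37 complex I genes, 10 and 10 were bound in the parental line and 31 and 32 in TKO, which are 27.0%, 27.0%, 83.8% and 86.5%. The 37 count NDUFC2 and the read-through gene NDUFC2-KCTD14 separately, and both were bound in all 4 libraries. With lists of equal length the complex I counts were 10, 7, 5 and 9, or 27.0%, 18.9%, 13.5% and 24.3%, against 12.2%, 9.07%, 13.3% and 13.6% of all genes. Those of complex V were then 5, 3, 7 and 10 of 20, or 25%, 15%, 35% and 50%. The 10 counts the peak shared by ATP5MF and the read-through gene for both genes. In these lists the parental and TKO counts of the other complexes differed less than those of complex V. Complex III had 2, 1, 1 and 3 of 10 genes and complex IV subunits 0, 0, 1 and 1 of 17. Complex IV assembly factors had 3, 4, 4 and 4 of 9, and complex II had 0 in each library.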

How the data were processed

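Myc ChIP-seq libraries of parental and TKO MDA-MB-231 cells (2 each) had a peak list; the 2 input samples had no file analysed here. The authors aligned 50-base single-end reads to hg19 with Novoalign 3.08.02 and called peaks in each library with MACS2 2.1.1.20160309 against input, per the labels and methods. Each deposited list gives fold enrichment over local background (a ratio), −log10 p and q values, a score made from q and a summit offset. The lowest −log10 q was 2.03 to 2.07. How duplicate reads were handled is not given in the sources used here.

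Summits were assigned to genes with GENCODE v44 lifted to GRCh37 (55751 start sites of basic transcripts), and each gene was represented by its promoter peak of highest fold. The percentile of a peak is its rank by fold within its own list. Summit reads were solved from fold and −log10 p, and a whole number matched within 0.002 for 100% of peaks. Depth assumes a genome of 2700000000 bases and an extension equal to the narrowest peak. Both scale the reads per 10 M. Fold over background differs from reads because it divides by local background.

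Cell lines were compared by an exact permutation test of library values, two-sided, over 6 divisions. The members and lists were chosen with earlier results of these data known. Genes given with values in each library were those highest and lowest by rank in each complex, isoform pairs, cytochrome genes, genes bound in all 4 libraries, and genes bound in no library or outside the commonest class of their complex; others were added for their role after their values were seen. Alternatives were other start-site windows and transcripts, stricter q or fold, lists of equal length, other scalings of reads, other motif windows, each library left out and a replicate block. The NRF1, ETS and YY1 motifs and leaving out the read-through gene were added after seeing the data. The recovery of summit reads and the assignment of summits to genes were tested on simulated data, and the permutation test on a constructed example. The simulated reads did not go as low as the lowest in the lists. The other steps were not tested in this way. Tools were samtools 1.23.1, pysam 0.24.0, matplotlib 3.10.9, pandas 2.3.3, scipy 1.17.1, numpy 2.4.6 and Python 3.11.15.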

Additional observations from a re-analysis of the deposited data

How the results depend on the processing

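Lists of equal length changed the most, since the TKO lists then lose most of their peaks. The number of members bound in both TKO libraries and no parental library was then 5 instead of 35, and the mean number bound in TKO was 0 in complex II, 2 in complex III, 1 among complex IV subunits, 4 among its assembly factors and 8.5 in complex V. The gain in median percentile by fold at the members bound in all 4 libraries, 38.4 points, was -3.42 with equal lists, in the opposite direction. In the full lists the medians of these members averaged 54.2 in the parental line and 92.6 in TKO. Those of all 1843 genes bound in all 4 libraries averaged 63.3 and 94.9, so a large gain was not particular to the members. With a fold of at least 5, 22 members were bound in TKO alone, and the mean TKO number of complex IV subunits was 5.5 instead of 9.5. Of the main results under all alternatives, 88 were classed as the same, 8 as moved and 1 as reversed. The first class does not mean a like size. It held the difference in share that fell from 63.1 to 10.7 percentage points with lists of equal length.

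With each library left out in turn, the difference in share stayed at 60.7 to 65.6 percentage points, the TKO-alone count at 35 to 38, the ratio of reads at 2.33 to 2.46 and the percentile gain at 28.2 to 39.8. The ratio was 1.62 for reads not scaled by depth and 1.94 for the authors' fold. The E-box difference of -6.53 percentage points lay between -1.98 and -11.1 in those fits and was -22.2 within 250 bp. Same-numbered libraries share only a number: the correlation of their deviations over 1843 genes was 0.0722. With the number as a replicate block the difference in share was 63.1 (exact permutation p = 0.5) and the ratio 2.45. At 11 bound members per parental library, 1 gene moves a parental motif share by 9.09 percentage points.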
